A study of Mus musculus with 12 samples.

Results

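The comparison set the hippocampus against the cortex in mouse embryos that lack functional Srrm4. It rests on the 4 knockout libraries of the series (2 from hippocampus, 2 from cortex), chosen by their labels, out of 8 libraries in all. The other 4 libraries come from hippocampus and cortex of embryos labelled wild type, called controls here. Messenger RNA of both tissues was sequenced from E18.5 embryos, shortly before birth. Srrm4, also named nSR100, was targeted with a conditional allele from the EUCOMM resource. The labels name 2 stem cell clones and do not say which of them gave the line. The cells were aggregated with morulae of the outbred ICR stock, the line was bred on a C57Bl/6N background, and exons 7 and 8 were removed by a cross to B6.C-Tg(CMV-cre)1Cgn/J mice, in which the cytomegalovirus promoter drives Cre recombinase broadly rather than in 1 cell type. The labels do not say whether controls carried Cre, which libraries came from which animals or litters, or how the tissue was cut. The p-values below therefore measure the spread between libraries, which may be partly technical.

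Srrm4 is a splicing activator of neurons that promotes the inclusion of microexons, very short exons found mostly in genes of synapses, axons and the cytoskeleton. The hippocampus and the neocortex are neighbouring parts of the dorsal telencephalon. The hippocampus forms from its medial edge, next to the cortical hem, a signalling centre that secretes Wnt and bone morphogenetic proteins and also gives rise to Cajal-Retzius cells. Close to birth the cortical layers are largely laid down, whereas granule neurons of the dentate gyrus, a field of the hippocampus, are still being produced from dividing progenitors.

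The deposited tables give each gene a read count and an RPKM value, which is the read count scaled to the length of the gene and the depth of the library. Libraries held 58210499 to 140052443 counts, and replicate 1 was deeper than replicate 2 in every group. In the 4 knockout libraries, the first principal component of gene expression carried 82.9% of the variance and separated hippocampus from cortex. The second carried 11.8% and separated replicate 1 from replicate 2 in both tissues. Y-linked genes stood at 25.4 and 49.8 counts scaled to library depth (CPM) in replicate 1 of knockout cortex and hippocampus and at 0.319 and 0.412 CPM in replicate 2, so Y-linked expression separated the replicates in both tissues. Knockout hippocampus replicate 1 had the largest mitochondrial share of counts, 4.40% against 3.14% to 3.44% in the other 7 libraries. The 2 knockout hippocampus libraries also differed from each other. Among genes called different between the tissues, 354 of 6393 were over 1.5-fold higher in replicate 1 than in replicate 2 and 100 were over 1.5-fold higher in replicate 2. Such gaps were not confined to this pair. The counts were 196 and 155 of 6398 in knockout cortex and 88 and 220 of 6410 in control hippocampus. The part of any of these in the regional differences was not tested.

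Srrm4 itself (ENSMUSG00000063919) lay at 8.12 and 6.97 RPKM in the knockout cortex libraries (replicates 1 and 2) and at 5.68 and 6.16 RPKM in the knockout hippocampus libraries. In controls it lay at 25.2 and 24.2 RPKM in cortex and at 26.0 and 27.9 RPKM in hippocampus. All 4 knockout libraries were thus below all 4 controls, although a gene total does not separate the removed exons from the exons that remain. Within the knockout the hippocampus was lower (log2 fold change of hippocampus over cortex -0.46, SE 0.10, adjusted p = 0.0067, edgeR). This call was lost without cortex replicate 1, where the log2 fold change was -0.32 (adjusted p = 0.052, edgeR). The control difference was 0.05.

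Regional differences were widespread without functional Srrm4. Of 16111 genes tested, 6442 (40.0%) differed between knockout hippocampus and knockout cortex at an adjusted p under 0.05 (edgeR quasi-likelihood test, Benjamini-Hochberg), 3415 (21.2%) higher in hippocampus and 3027 (18.8%) lower. A gene is called higher or lower below only by this test, and all log2 fold changes are of hippocampus over cortex in the knockout unless controls are named. At least 2-fold differences were called for 2080 genes (12.9%), 1189 (7.38%) higher and 891 (5.53%) lower. At least 16-fold differences were called for 60 higher and 44 lower genes. The median log2 fold change of all genes tested was 0.03. The RPKM values of the tissues did not overlap for 11006 of the 16111 genes (68.3%) and for 6423 of the 6442 calls (99.7%). A statement below that a called gene did not overlap therefore adds little to its call. In bulk tissue, fewer cells of a type and less RNA of a gene per cell cannot be told apart, and this holds for every gene below.

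The calls depended on the expression level, on the method and on the libraries in the fit. A fit of the 4 knockout libraries alone called 4983 genes, 2752 higher and 2231 lower. Among genes with a mean under 1 RPKM in the knockout, 837 were higher and 452 lower, whereas among genes from 10 to 100 RPKM 872 were higher and 1548 lower. Without cortex replicate 1 the test called 4156 genes, 2248 higher and 1908 lower. On log2(RPKM + 1), limma called 4214 genes higher and 2160 lower, a share of 66.1% higher against 53.0% in edgeR. DESeq2 called 3043 higher and 3287 lower, so its excess lay with the lower calls. With another library scaling (RLE), edgeR called 3194 higher and 3211 lower. RPKM carries no scaling of the kind edgeR used (TMM). The TMM factors were 0.956 and 0.980 in knockout cortex and 1.049 and 1.035 in knockout hippocampus. The part of scaling in these shares was not tested.

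**Figure D1:**
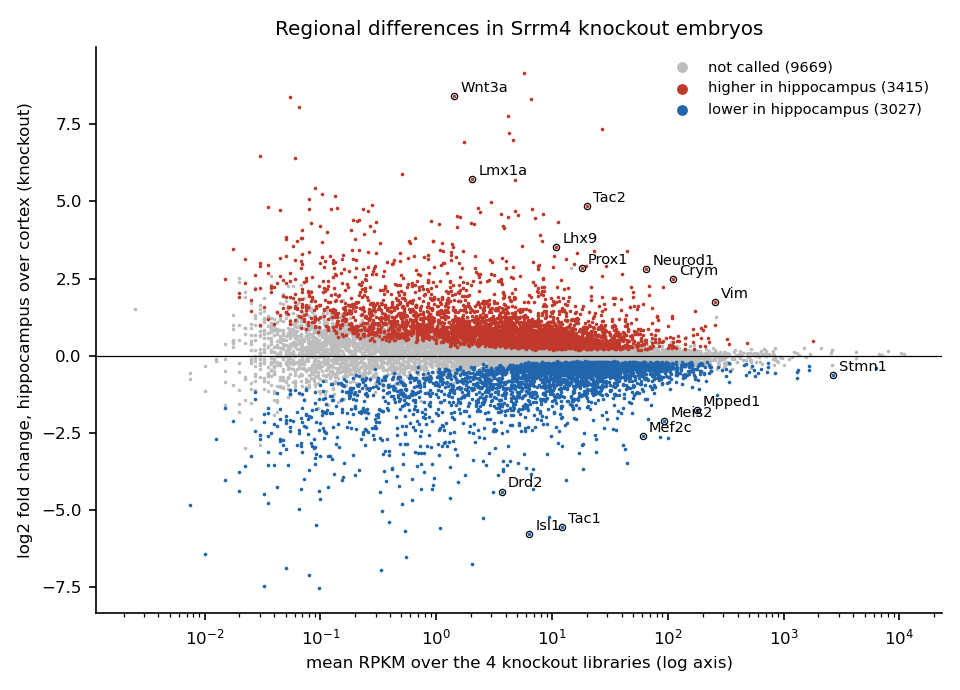
Log2 fold change of hippocampus over cortex in the knockout (vertical axis) against mean RPKM over the 4 knockout libraries (horizontal log axis) for the genes tested, 1 point a gene, with genes that passed the test coloured by direction. The labelled genes reach from Wnt3a at 8.42 to Isl1 at -5.76, and differences become smaller towards the most abundant genes.

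Of the gene lists tested, that of the cortical hem had the highest median log2 fold change, 1.44. Wnt3a, the Wnt ligand needed for hippocampal growth, stood at 0.01 RPKM in both knockout cortex libraries and at 3.27 and 2.43 RPKM in knockout hippocampus. Its cortex value rests on 4 counts in all, against 1470 in hippocampus, a ratio of 412 (exact 95% interval 160.5 to 1514, counting error only; fitted log2 fold change 8.42, SE 0.38, adjusted p = 4.6e-06, edgeR). Lmx1a, a LIM-homeodomain factor that specifies the hem, was at 0.08 and 0.06 RPKM in cortex and at 4.87 and 3.15 RPKM in hippocampus (log2 fold change 5.72, SE 0.28, adjusted p = 6e-06, edgeR). In neither gene did the tissues overlap, and hippocampus replicate 1 was the higher of the 2 for both.

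Msx1, a homeobox target of bone morphogenetic protein signals, rose by a log2 fold change of 4.80, and the ligand Wnt8b by 7.22, which became 10.60 without cortex replicate 1. Rspo1, a secreted enhancer of Wnt signals, was at 0.35 and 0.38 RPKM in cortex and 7.6 and 6.68 RPKM in hippocampus (4.19). Wnt5a, a ligand that mostly acts without beta-catenin, was at 2.28 and 2.23 RPKM against 12.5 and 11.5 RPKM (2.30). Of the 21 hem genes tested, 16 were higher and 2 lower. The lower ones were Wnt7b (-0.86), a Wnt ligand made by cortical neurons, and Bmp2 (-0.93), a bone morphogenetic protein. The control comparison gave 17 higher and 2 lower with a median of 1.45.

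The Wnt pathway list, which holds receptors, inhibitors and targets rather than the hem ligands, had 22 of 36 tested genes higher and 5 lower, with a median of 0.55. With only genes of at least 1 RPKM in 2 libraries tested, 3 were lower. Sequences are shown for 2 Wnt targets, Sp5 and Dkk1, because their promoters were the ones among the higher members that held a letter match to the core of the site bound by Tcf and Lef factors. Each line gives the 250 bases before the gene's start, 5′ to 3′ on the gene's strand, from RefSeq on build GRCm38.p6, with the match in capitals.
Sp5, chr2:70474673-70474922, plus strand: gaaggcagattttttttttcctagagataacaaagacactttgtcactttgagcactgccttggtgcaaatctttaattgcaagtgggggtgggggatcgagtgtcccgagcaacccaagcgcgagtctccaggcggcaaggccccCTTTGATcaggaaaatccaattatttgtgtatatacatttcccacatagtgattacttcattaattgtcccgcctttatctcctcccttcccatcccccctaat
Dkk1, chr19:30549497-30549746, minus strand: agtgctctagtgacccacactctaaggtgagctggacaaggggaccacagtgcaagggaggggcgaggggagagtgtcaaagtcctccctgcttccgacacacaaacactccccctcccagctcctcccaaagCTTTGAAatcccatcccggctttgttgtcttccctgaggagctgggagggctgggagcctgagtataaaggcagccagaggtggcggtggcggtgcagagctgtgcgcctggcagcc

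The letters searched were CTTTGAA and CTTTGAT on both strands, which overlap each other in their first 6 bases and cannot match at the same place on 1 strand. The search covered windows of 250 bases before to 50 after each start. A match was found in 2 of 23 windows of the higher Wnt members (8.70%, from 17 of the 22 genes), in 197 of 3271 windows of all genes called higher (6.02%), in 161 of 3049 of those called lower (5.28%) and in 2840 of 32817 windows of the whole table (8.65%). Among windows of the genes tested, which include those of the Wnt members, 939 of 15567 had a match (6.03%). The share in the Wnt members was close to that of the whole table and above that of the genes tested. It rests on 2 windows with a match, and a match is a description of letters, not a binding site.

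Among the targets of the pathway, Sp5, a zinc finger factor induced by Wnt, was at 0.22 and 0.17 RPKM in knockout cortex and at 3.88 and 4.24 RPKM in knockout hippocampus (log2 fold change 4.25, SE 0.20, adjusted p = 5.1e-06, edgeR). Dkk1, a secreted Wnt antagonist that is also a Wnt target, was low in both, at 0.08 and 0.12 RPKM against 0.29 and 0.24 RPKM (1.39), and its call was lost without cortex replicate 1 (1.05, adjusted p = 0.081, edgeR) or hippocampus replicate 1 (1.24, adjusted p = 0.053, edgeR). Axin2, a scaffold of the beta-catenin destruction complex and a general Wnt target, was at 6.06 and 6.29 RPKM against 18.3 and 18.2 RPKM (1.46). Rnf43, a ligase that removes Wnt receptors, differed by 3.65, and Lef1, the nuclear partner of beta-catenin, by 2.87. Each of these targets was higher in both hippocampus libraries than in both cortex libraries.

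The receptor Fzd10 was at 0.18 and 0.17 RPKM in cortex and 4.38 and 3.26 RPKM in hippocampus (4.30), while Fzd5, another receptor, was at 0.54 and 0.44 RPKM in cortex and 0.13 and 0.08 RPKM in hippocampus (-2.26). The secreted Wnt binders were split. Frzb was higher (2.66), and Sfrp1 (-0.84) and Sfrp2 (-1.41) were lower. Beta-catenin itself, Ctnnb1, was at 292.4 and 272.6 RPKM against 399.6 and 393.6 RPKM (0.38), a call lost without cortex replicate 2 (0.31, adjusted p = 0.11, edgeR). Apc, of the destruction complex, did not pass (-0.31, adjusted p = 0.20, edgeR).

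Transcription factors of the medial pallium were mostly higher in hippocampus, 17 of 30 tested against 4 lower, with a median of 0.88. Prox1, which specifies dentate granule neurons, was at 4.81 and 3.52 RPKM in knockout cortex and at 34.3 and 29.8 RPKM in knockout hippocampus (log2 fold change 2.83, SE 0.21, adjusted p = 4.1e-05, edgeR). Emx2, a homeobox gene needed for hippocampal growth, was at 7.09 and 7.20 RPKM against 41.5 and 51.4 RPKM (2.59, SE 0.11, adjusted p = 4.1e-06, edgeR). Zbtb20, which defines hippocampal pyramidal identity, was at 11.5 and 9.25 RPKM against 74.7 and 66.2 RPKM (2.65). Hippocampus libraries were above both cortex libraries for all of these, and the controls gave 2.78 for Prox1, 2.64 for Emx2 and 2.59 for Zbtb20.

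Dmrt3 and Lhx9, factors of the medial pallium, differed by 4.14 and 3.52. Lhx2, which sets cortical identity against the hem, was already abundant in cortex, at 55.7 and 63.6 RPKM, and reached 135.9 and 178.6 RPKM in hippocampus (1.29). The lower members included Meis2, a factor prominent in the striatum, at 148.3 and 149.1 RPKM in cortex and 34.6 and 39.9 RPKM in hippocampus (-2.10), and Meis1, at -3.85, or -4.53 without hippocampus replicate 1. Bcl11a, a cortical neuron factor, was at 84.5 and 78.4 RPKM against 65.6 and 77.5 RPKM and did not pass (-0.29, adjusted p = 0.058, edgeR), although it passed without hippocampus replicate 2 (-0.43, adjusted p = 0.016, edgeR) and with DESeq2.

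Markers of the adult hippocampal fields were divided at this age, with 12 of 29 tested higher, 9 lower and a median of 0.13. Crym, a thyroid hormone binding protein, was at 30.4 and 32.4 RPKM in cortex and 157.1 and 220.1 RPKM in hippocampus (2.48). Nrp2, a semaphorin receptor, differed by 1.66 and Grik4, a kainate receptor subunit of field CA3, by 1.44. Lower were Calb1, the calcium buffer that later marks granule cells, at 8.72 and 8.59 RPKM against 3.39 and 2.91 RPKM (-1.56), and Mpped1, at 264.1 and 275.7 RPKM against 95.7 and 75.9 RPKM (-1.76). Rgs14, a marker of field CA2, was under 1 RPKM in all 4 knockout libraries and lower in hippocampus (-1.35).

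**Figure D2:**
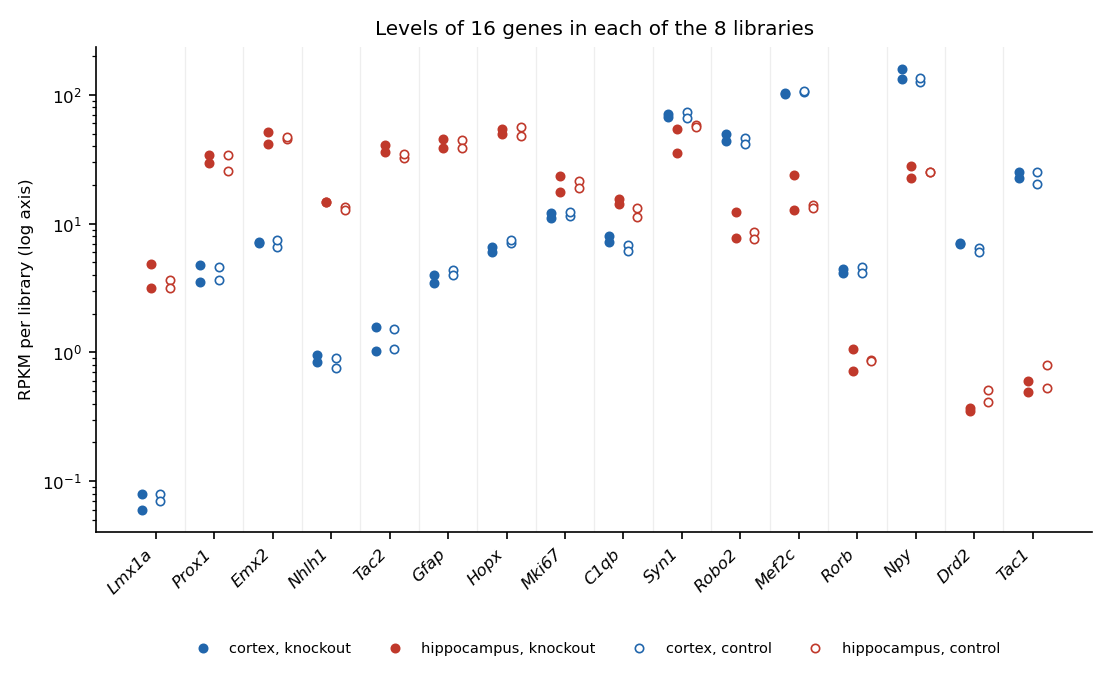
RPKM (log axis) of 16 genes in each of the 8 libraries, cortex and hippocampus side by side, with filled symbols for the knockout and open symbols for controls. Knockout and control libraries of a tissue lie close together compared with the gap between tissues for genes such as Prox1, Tac2 and Tac1, and the 2 knockout hippocampus libraries lie apart for Mef2c, at 24.04 and 12.8 RPKM.

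Cajal-Retzius genes were higher in 13 of 20 tested and lower in 5, with a median of 1.30. These neurons line the hippocampal fissure and the cortical surface. Trp73, a p53 relative typical of hem-derived Cajal-Retzius cells, was at 3.76 and 3.61 RPKM in cortex and 19.0 and 18.0 RPKM in hippocampus (log2 fold change 2.22, SE 0.09, adjusted p = 2.5e-06, edgeR). Lhx1, a LIM-homeodomain factor, was at 0.70 and 0.59 RPKM against 4.15 and 3.99 RPKM (2.53). Calb2, which encodes calretinin, differed by 2.08, and Cxcr4, a chemokine receptor, by 1.91. Reln, the secreted guide of neuronal layering, was at 50.2 and 38.9 RPKM against 131.3 and 100.5 RPKM (1.27), with no overlap between tissues. The lower members were the transcription factor Ebf2 (-2.35), the matrix proteoglycan Spock1 (-1.25), the chemokine scavenger Ackr3 (-1.23), the cell cycle inhibitor Cdkn1a (-0.66) and the long non-coding RNA Snhg11 (-1.07). The last call was lost without cortex replicate 2 (-0.79, adjusted p = 0.056, edgeR), hippocampus replicate 1 (-1.07, adjusted p = 0.066, edgeR) or hippocampus replicate 2 (-1.06, adjusted p = 0.055, edgeR). Calb2 and Cxcr4 also stand on the interneuron list, whose summed level moved the other way.

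Genes listed for intermediate progenitors, the dividing cells committed to a neuronal fate, were higher in 13 of 20 tested and lower in 2, with a median of 1.05. The 2 lower calls became 0 without cortex replicate 1 and 1 without any other single knockout library. Nhlh1, a bHLH factor of newborn neurons, was at 0.96 and 0.84 RPKM in cortex and at 14.7 RPKM in both hippocampus libraries (log2 fold change 3.91, SE 0.12, adjusted p = 1.1e-06, edgeR). Neurod1, which drives granule neuron differentiation, was at 14.98 and 15.3 RPKM against 100.7 and 128.9 RPKM (2.82). Tac2, the neurokinin B precursor, was at 1.02 and 1.57 RPKM against 36.2 and 40.9 RPKM (4.85). Eomes, the defining factor of these progenitors, was at 13.6 and 14.8 RPKM against 44.1 and 43.0 RPKM (1.51). All of these separated the tissues without overlap. The list thus also holds genes of newborn neurons, and its calls do not stand for dividing cells alone. Nhlh1 is on the Cajal-Retzius list too, where it had the largest value, and Tac2 is on the neuropeptide list. Over the bHLH list, 14 of 23 tested genes were higher and 5 lower, and Neurod6, a factor of mature pyramidal neurons, did not pass, at 261.2 and 299.1 RPKM against 273.0 and 280.7 RPKM.

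Proliferation genes stood higher in knockout hippocampus almost throughout, 28 of 30 tested with none lower and a median of 0.73. Mki67, present only in cycling cells, was at 12.1 and 11.03 RPKM in cortex and 23.6 and 17.6 RPKM in hippocampus (log2 fold change 0.73, SE 0.14, adjusted p = 0.0042, edgeR). Cdk1, the mitotic kinase, was at 5.98 and 6.57 RPKM against 13.8 and 12.7 RPKM (0.97). The members that did not pass were the ribonucleotide reductase genes Rrm1 and Rrm2, at 0.28 and 0.16, and Rrm1 passed without hippocampus replicate 2 (0.45, adjusted p = 0.036, edgeR). The gene with the largest value of the list, Hells, a chromatin remodeller of replication, reached 0.99, so that no member passed 2-fold. In controls 27 were higher, none lower and the median was 0.74.

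Radial glia genes gave 18 of 25 higher and 2 lower (1 without cortex replicate 1 or hippocampus replicate 2), with a median of 0.69. Hopx, a homeodomain protein of dentate neural stem cells, was at 6.59 and 6.06 RPKM in cortex and 54.2 and 49.3 RPKM in hippocampus (2.92). Vim, the intermediate filament vimentin, was at 114.3 and 106.0 RPKM against 412.9 and 381.0 RPKM (1.74). Both were several-fold above cortex in each hippocampus library. Fabp7, a fatty acid binding protein and the most abundant member, was closer between the tissues, at 704.6 and 769.9 RPKM against 1059 and 819.3 RPKM, and did not pass (0.24, adjusted p = 0.17, edgeR) unless hippocampus replicate 2 was left out (0.40, adjusted p = 0.024, edgeR). The Notch pathway, which keeps progenitors undifferentiated, had 12 of 21 higher and 2 lower, among them the receptor modifier Lfng (1.30) and the effectors Hey2 (1.23) and Hes1 (0.98). Dlk1, a non-canonical ligand, was lower (-1.03). The lower count was 1 without cortex replicate 2 or hippocampus replicate 1, 4 without hippocampus replicate 2 and 4 with DESeq2.

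In the Hedgehog pathway, the signal transducer Smo was at 8.26 and 8.33 RPKM in cortex and 23.7 and 22.9 RPKM in hippocampus (1.38), and the target Gli1 differed by 1.47, while the ligand Shh was under 1 RPKM in all 4 libraries and lower in hippocampus (-2.13). Of the 15 genes tested, 6 were higher and 4 lower. Genes of motile cilia, which ependymal cells carry, were higher in 15 of 20 tested, with none lower and a median of 1.23. Foxj1, the master regulator of motile cilia, was at 5.29 and 4.15 RPKM against 17.0 and 15.4 RPKM (1.67). Hydin, a component of the ciliary central pair, differed by 3.18.

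Astrocyte genes were split, 10 of 20 higher and 5 lower. Gfap, the astrocyte filament that radial glia of the dentate also carry, was at 3.96 and 3.48 RPKM in cortex and 45.01 and 39 RPKM in hippocampus (log2 fold change 3.38, SE 0.13, adjusted p = 2.7e-06, edgeR). Gja1, the gap junction protein connexin 43, differed by 1.81. Aldh1l1, a folate enzyme that marks astrocytes broadly, was lower, at 16.9 and 13.7 RPKM against 10.6 and 7.63 RPKM (-0.86), as was Sparcl1, a synapse-promoting secreted protein (-0.77). Oligodendrocyte lineage genes had 1 of 18 higher and 8 lower, with a median of -0.71. Olig2, the lineage factor, was at 12.5 and 13.4 RPKM against 6.91 and 7.49 RPKM (-0.95), and Olig1 differed by -1.02. The higher call was absent with DESeq2 and without cortex replicate 1, cortex replicate 2 or hippocampus replicate 1, and 2 genes were higher without hippocampus replicate 2. The control comparison called 2 higher and 9 lower.

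On the cortical side, genes of the deep layers were lower in hippocampus in 19 of 27 tested and higher in 5, with a median of -1.15. Tbr1, which specifies corticothalamic neurons, was at 70.6 and 70.3 RPKM in cortex and 32.3 and 31.2 RPKM in hippocampus (log2 fold change -1.26, SE 0.07, adjusted p = 8.9e-06, edgeR). Ntsr1, a neurotensin receptor of layer 6, was at 16.7 and 16.9 RPKM against 3.94 and 2.01 RPKM (-2.59). Foxp2 was at 13.6 and 12.7 RPKM against 0.92 and 0.45 RPKM (-4.33), or -4.96 without hippocampus replicate 1. Hippocampus replicate 1 lay above replicate 2 for Ntsr1 and Foxp2, yet both were far below cortex. Crym, described above with the hippocampal field markers, stands on this list too and had its largest value (2.48). Higher members also included Zfpm2, a zinc finger partner of GATA factors, at 7.19 and 7.24 RPKM against 19.7 and 22.6 RPKM (1.44). Fezf2, which specifies subcortical projection neurons, was at 28.1 and 34.5 RPKM against 50.3 and 51.0 RPKM (0.59).

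Upper layer genes were lower in 17 of 23 tested and higher in 6, with a median of -0.82. Mef2c, an activity-regulated factor of cortical neurons whose transcript also holds an alternative microexon, was at 101.7 and 103.8 RPKM in cortex and at 24.04 and 12.8 RPKM in hippocampus (-2.59, SE 0.24, adjusted p = 0.00012, edgeR). Control hippocampus held 13.9 and 13.3 RPKM of Mef2c, so knockout hippocampus replicate 1 stood above the other 3 hippocampus libraries in this gene. Of the deep layer genes, 5 of 27 were over 1.5-fold higher in that library than in knockout hippocampus replicate 2, and 0 the other way. In control hippocampus, 0 were over 1.5-fold higher in replicate 1 and 3 in replicate 2.

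Rorb, the nuclear receptor of layer 4, was at 4.41 and 4.13 RPKM against 1.07 and 0.72 RPKM (-2.35), and Cux2, a homeobox factor of the upper layers, at 23.4 and 24.8 RPKM against 10.2 and 8.82 RPKM (-1.45). Among the 6 higher members, Lpl, lipoprotein lipase, was at 10.9 and 10.5 RPKM against 34.3 and 52.6 RPKM (1.91), and Epha4, an ephrin receptor, differed by 1.54. Subplate genes, which mark the earliest cortical neurons, had 10 of 17 lower and 4 higher with a median of -0.68, including Unc5c, a netrin receptor (-1.75), and Lpar1, a lysophosphatidic acid receptor (1.70). Of 24 genes tied to area patterning, 8 were higher and 12 lower. Etv4, a target of fibroblast growth factor signals, differed by 1.37 and Lmo3, a LIM-only factor, by -2.02. Nr2f1, which patterns caudal cortex, did not pass (0.27, adjusted p = 0.083, edgeR), but passed without hippocampus replicate 1 (0.42, adjusted p = 0.014, edgeR).

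Genes of the ventral forebrain, the source of the striatum and of cortical interneurons, had the lowest median of the lists, -2.42. Of 29 tested, 28 were lower and none higher. Tac1, the substance P precursor of striatal projection neurons, was at 22.5 and 25.3 RPKM in knockout cortex and 0.60 and 0.49 RPKM in knockout hippocampus (log2 fold change -5.54, SE 0.20, adjusted p = 2.1e-06, edgeR). Drd2, the dopamine D2 receptor, was at 6.89 and 7.07 RPKM against 0.35 and 0.37 RPKM (-4.40, SE 0.14, adjusted p = 1.1e-06, edgeR). Isl1, a LIM-homeodomain factor of the striatum, was at 12.9 and 11.99 RPKM against 0.29 and 0.18 RPKM (-5.76, SE 0.70, adjusted p = 0.00042, edgeR). None of these overlapped between tissues. The retinoid receptor Rxrg differed by -4.01 and the homeobox factor Six3 by -4.41.

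Summed over the list, these markers stood at 554.9 and 543.7 RPKM in knockout cortex and at 143.6 and 160.4 RPKM in knockout hippocampus, and at 513.8 and 531.4 RPKM in control cortex. How much of the cortex samples was striatum is not given in the labels, and the part of these markers in the other lower calls was not tested. The retinoic acid list had 3 of 18 genes higher and 8 lower. With only genes of at least 1 RPKM in 2 libraries tested, 1 was higher. Its log2 fold changes ran from -4.01 to 4.04. The strongest lower calls were Rxrg and the receptor Rarb (-3.67), both also on the ventral forebrain list, as are Meis2 and Foxp2.

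Genes of interneurons, the inhibitory cells that migrate in from the ventral forebrain, were lower in 17 of 27 tested and higher in 4, with a median of -0.69. Sst, somatostatin, was at 170.2 and 170.9 RPKM in cortex and 26.8 and 31.2 RPKM in hippocampus (log2 fold change -2.66, SE 0.09, adjusted p = 1.9e-06, edgeR). Npy, neuropeptide Y, was at 132.2 and 158.6 RPKM against 28.1 and 22.7 RPKM (-2.62). Gad1, which makes GABA, differed by -1.38, and Slc32a1, the vesicular GABA transporter, by -1.70. Cck, cholecystokinin, went the other way, at 24.6 and 26.2 RPKM against 72.0 and 96.7 RPKM (1.62).

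**Figure D3:**
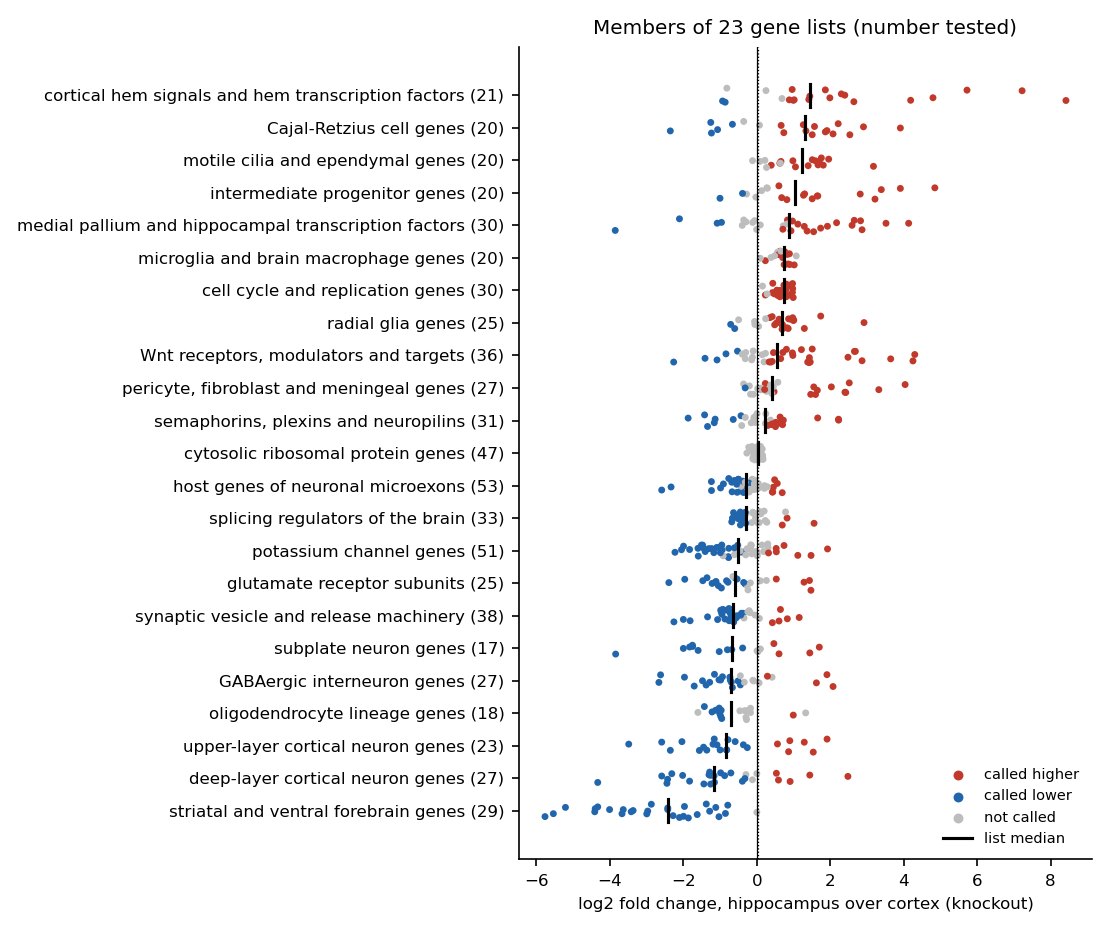
Log2 fold changes of hippocampus over cortex in the knockout for the tested members of 23 gene lists, 1 point a gene, with a black bar at each list's median and a dotted line at the median of all genes tested, 0.03. Members of the ventral forebrain list lie almost wholly below the line with a median of -2.42, and the proliferation list lies in a narrow band with a median of 0.73.

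Markers of some cell types that are not neural also differed. Microglia, the immune cells of the brain, had 14 of 20 genes higher and none lower (median 0.73), with complement C1qb at 7.24 and 8.02 RPKM in cortex and 15.5 and 14.2 RPKM in hippocampus (0.86). Without hippocampus replicate 1 the list had 8 higher. Their summed level was 79.2 and 79.7 RPKM against 139.0 and 127.0 RPKM. Mural and meningeal genes had 13 of 27 higher and 1 lower, the latter not called without cortex replicate 2 or hippocampus replicate 2. Dcn, the matrix proteoglycan decorin, was at 1.21 and 1.40 RPKM against 9.66 and 6.30 RPKM (2.52), and Col3a1, a fibrillar collagen, differed by 2.42, or by 1.57 without hippocampus replicate 1. Of these genes 8 of 27 were over 1.5-fold higher in knockout hippocampus replicate 1 than in replicate 2, and 0 the other way. The counts were 2 and 0 in control hippocampus and 0 and 3 in knockout cortex.

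Endothelial genes had 6 of 22 higher and none lower, a smaller share called than the 40.0% of all genes. The 6 became 2 without cortex replicate 1 and 3 without cortex replicate 2, without control cortex replicate 1 or without control cortex replicate 2, and 1 gene was lower without hippocampus replicate 2. Kdr, the vascular growth factor receptor, differed by 0.60, and Cldn5, the tight junction claudin, did not pass (0.22, adjusted p = 0.14, edgeR; 0.39 without hippocampus replicate 1, adjusted p = 0.0096, edgeR). Choroid plexus genes had 8 of 19 higher and 1 lower, or 5 higher and none lower with only genes of at least 1 RPKM in 2 libraries tested, and they were low. The share called, 47.4%, was near the 40.0% of all genes. Folr1, a folate transporter of that tissue, was at 0.13 and 0.10 RPKM against 2.02 and 1.47 RPKM (3.71). Ttr, transthyretin, its most abundant product, was at 0.60 and 6.68 RPKM in cortex and 24.1 and 26.8 RPKM in hippocampus and did not pass (2.83, adjusted p = 0.13, edgeR), but passed in a fit of the 4 knockout libraries alone (2.79, adjusted p = 0.030, edgeR). Its value ran from 1.84 to 5.27 when 1 library was left out. The summed choroid plexus level was 9.27 and 14.7 RPKM against 51.1 and 48.5 RPKM, while the 2 control hippocampus libraries stood at 34.6 and 185.4 RPKM.

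Haemoglobin genes did not differ by the test, Hbb-bs being at 177.7 and 152.9 RPKM against 232.9 and 144.4 RPKM (0.08, adjusted p = 0.78, edgeR). Of 11 genes tested on the erythroid list, 2 were higher and none lower, a smaller share (18.2%) than the 40.0% of all genes. Among the higher members was the erythroid factor Klf1, which stayed under 1 RPKM (2.09). Among neighbouring brain regions, the diencephalic list had 4 of 22 tested higher and 5 lower (2 lower with only genes of at least 1 RPKM in 2 libraries tested). That share was close to the 40.0% of all genes. Its strongest calls above 1 RPKM were Lhx9, which is also a medial pallium factor, and Fezf1, a zinc finger factor of the olfactory and hypothalamic regions, at 2.30 and 1.91 RPKM in cortex and 0.06 and 0.02 RPKM in hippocampus (-5.57, or -7.16 without hippocampus replicate 1). Of 27 midbrain and hindbrain markers looked up, 9 passed the filter on low counts, and the Hox members were at 0.02 RPKM or less in the knockout libraries. Hoxb2, Hoxb3 and Hoxb5, which mark hindbrain or spinal cord, had no count in any knockout library. Th, tyrosine hydroxylase, was at 1.20 and 0.98 RPKM in cortex on 299 and 109 counts and had 4 and 0 counts in hippocampus, a ratio of 91.0 (exact 95% interval 35.3 to 335.6, counting error only). En2, at 1.98 and 1.79 RPKM in cortex and 1.42 and 1.63 RPKM in hippocampus, did not pass (-0.42, adjusted p = 0.12, edgeR) and lay between 0.02 and 0.08 RPKM in controls. Its level thus went with genotype in both tissues, and whether it stood for midbrain or hindbrain cells was not tested. The part of these cell types in the other regional differences was not tested.

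**Figure D4:**
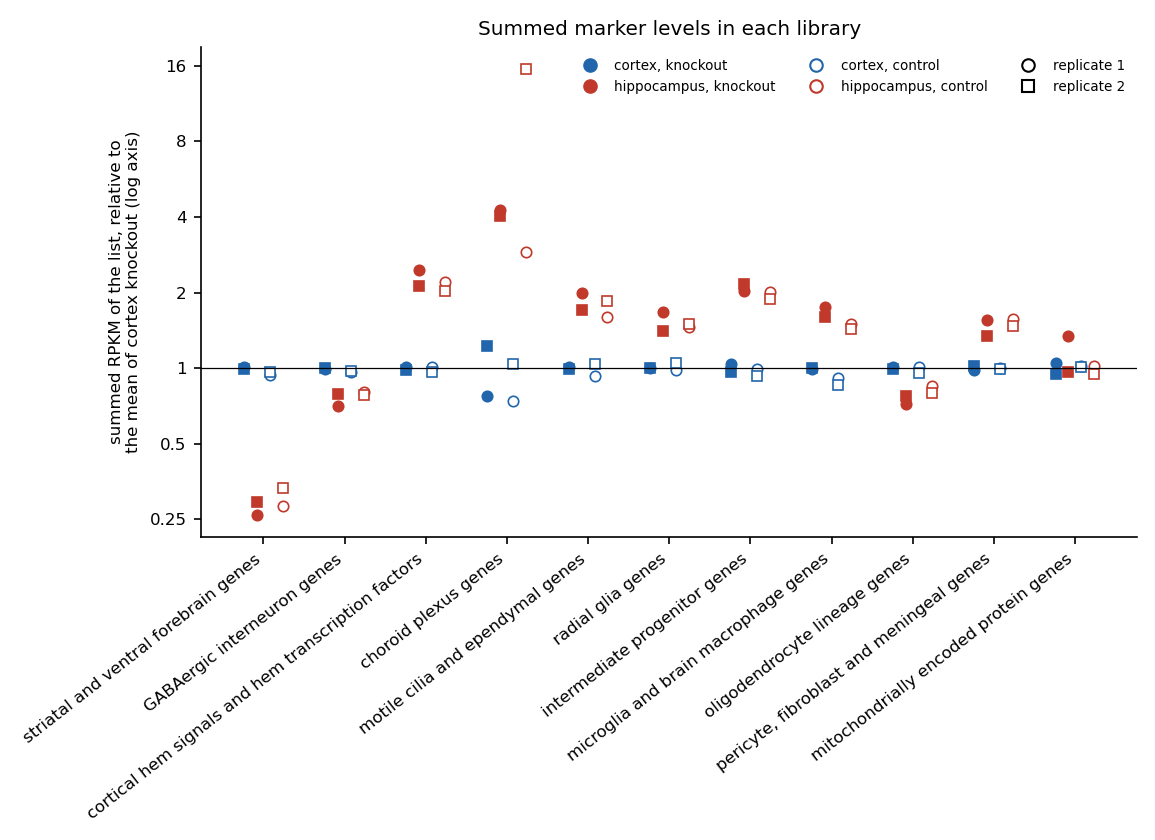
Summed RPKM of 11 marker lists in the 8 libraries, each divided by the mean of the 2 knockout cortex libraries (log axis), with circles for replicate 1 and squares for replicate 2. Ventral forebrain markers lie at 143.6 and 160.4 RPKM in knockout hippocampus against 554.9 and 543.7 RPKM in knockout cortex, and choroid plexus markers spread widely, up to 185.4 RPKM in control hippocampus replicate 2.

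Genes of the presynaptic vesicle cycle were mostly lower in knockout hippocampus, 27 of 38 tested against 5 higher, with a median of -0.64. Unc13c, a vesicle priming factor, was at 2.04 and 1.64 RPKM in cortex and 0.51 and 0.31 RPKM in hippocampus (-2.25). Syn3, a synapsin of immature neurons, was at 23.8 and 16.9 RPKM against 10.4 and 6.92 RPKM (-1.34). Syn1 was at 70.9 and 66.7 RPKM against 35.6 and 54.6 RPKM (-0.72, adjusted p = 0.015, edgeR), a call lost without cortex replicate 1 (-0.65, adjusted p = 0.072, edgeR). Higher were Slc17a8, the vesicular glutamate transporter VGLUT3, at 0.57 and 0.44 RPKM against 1.33 and 1.12 RPKM (1.16), and the calcium sensor Syt2 (0.83). Slc17a6, the transporter VGLUT2, did not pass (-0.18), although it passed without hippocampus replicate 1 (-0.32, adjusted p = 0.028, edgeR). In controls 23 were lower and 4 higher, with a median of -0.49.

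Glutamate receptor genes had 15 of 25 lower and 4 higher, and the difference depended on the subunit. Grin3a, a modulatory NMDA receptor subunit, was at 14.1 and 11.8 RPKM in cortex and 4.16 and 3.01 RPKM in hippocampus (-1.96). Grin2c, another NMDA receptor subunit, was at 0.40 and 0.53 RPKM against 1.32 and 1.43 RPKM (1.47). Gria1, an AMPA receptor subunit, was at 48.1 and 44.4 RPKM against 67.5 and 76.5 RPKM (0.53), whereas Gria2 overlapped and did not pass (-0.17). The metabotropic receptor Grm8 differed by -2.39. Subunits of the GABA-A receptor showed the same division. Gabra2 was at 27.6 and 22.9 RPKM against 60.6 and 59.2 RPKM (1.14), and Gabra3 at 23.2 and 20.5 RPKM against 8.69 and 6.99 RPKM (-1.58). Slc12a5, the chloride exporter KCC2 that makes GABA inhibitory, was at 22.8 and 19.8 RPKM against 7.11 and 10.3 RPKM (-1.40). Of 19 genes of GABA reception, 5 were higher and 11 lower, 2 and 6 of them by at least 2-fold. Their log2 fold changes ran from -1.63 to 4.01.

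Potassium channel genes had 25 of 51 lower and 7 higher, with a median of -0.52. Kcnf1, a silent modulatory subunit, was at 7.33 and 6.77 RPKM in cortex and 1.72 and 1.52 RPKM in hippocampus (-2.23). Kcnk1, a leak channel, was at 8.42 and 8.50 RPKM against 31.9 and 37.4 RPKM (1.93), and Kcnj10, the inward rectifier of astrocytes, differed by 1.12. Sodium and calcium channel genes had 14 of 29 lower. Their 4 higher calls became 0 without knockout hippocampus replicate 2 and 1 to 3 without each of the other 7 libraries. Scn2a, the main sodium channel of young axons, was at 22.4 and 20.1 RPKM against 13.2 and 11.2 RPKM (-0.91), and Cacng3, an AMPA receptor auxiliary subunit, differed by -1.55.

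Axon guidance genes went both ways. Semaphorins and their receptors had 13 of 31 higher and 7 lower, with a median of 0.24 that ranged from -0.01 to 0.32 over the other settings. Nrp1, a receptor of class 3 semaphorins, was at 31.2 and 28.6 RPKM in cortex and 137.4 and 164.2 RPKM in hippocampus (log2 fold change 2.23, SE 0.12, adjusted p = 8.3e-06, edgeR). The ligand Sema3c was at 18.2 and 13.8 RPKM against 81.4 and 80.5 RPKM (2.23), and the ligand Sema3a, which also binds Nrp1, at 13.1 and 11.5 RPKM against 4.41 and 2.82 RPKM (-1.87). Among ephrins, netrins, Slits and their receptors, 12 of 38 were higher and 19 lower. Slit ligands and Robo receptors moved in opposite directions. Slit3 was at 2.80 and 2.36 RPKM against 10.6 and 14.8 RPKM (2.18) and Slit2 differed by 1.19, while the receptor Robo2 was at 49.4 and 43.8 RPKM against 12.2 and 7.68 RPKM (-2.33, SE 0.20, adjusted p = 8.3e-05, edgeR) and Robo1 differed by -1.23. Slit1, by contrast, was lower (-0.78). Efnb2, an ephrin ligand, differed by -1.49 and the netrin receptor Dcc by 1.22.

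Cadherins and protocadherins were lower in 18 of 30 and higher in 2, with a median of -0.55. Cdh13, a cadherin without a transmembrane part, was at 49.5 and 45.1 RPKM in cortex and 14.6 and 10.2 RPKM in hippocampus (-2.04), and Pcdh20 and Celsr1, a planar polarity cadherin, were the higher ones, at 1.98 and 1.39. Synaptic adhesion genes were lower in 22 of 37 and higher in 5. Adgrl2, a latrophilin, was at 53.4 and 58.9 RPKM against 22.2 and 13.0 RPKM (-1.78). C1ql1, a secreted synapse organiser, was higher (1.04). Among neurotrophins and their receptors, 6 of 17 were higher, or 2 without cortex replicate 2, and 8 lower, or 5 with only genes of at least 1 RPKM in 2 libraries tested. Bdnf, the neurotrophin, was at 0.71 and 0.77 RPKM against 2.26 and 3.35 RPKM (1.81), and its receptor Ntrk2 at 45.5 and 37.9 RPKM against 20.4 and 16.6 RPKM (-1.28). Neither gene overlapped between the tissues.

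Of 31 neuropeptide and secretory granule genes, 7 were higher and 14 lower, or 9 lower without cortex replicate 1. Beside Tac2, Tac1, Sst and Npy, Trh, the thyrotropin-releasing hormone precursor, was at 1.34 and 0.99 RPKM in cortex and 0.16 and 0.12 RPKM in hippocampus (-3.12), and Scg2, a granin of secretory granules, at 33.9 and 30.6 RPKM against 10.8 and 10.4 RPKM (-1.71). Immediate early genes, which respond to activity, had 6 of 22 higher and 9 lower. Nr4a3, an orphan nuclear receptor, was at 16.2 and 16.9 RPKM against 49.0 and 76.8 RPKM (1.82), while Npas4, a factor induced by calcium entry, was at 1.94 and 2.93 RPKM against 0.98 and 1.09 RPKM (-1.34). Ier5 differed by 1.18 and Egr4, a zinc finger factor under 1 RPKM in all 4 libraries, by -2.68. In the hypoxia and glycolysis list 4 of 25 were higher and 7 lower. The share was close to that of all genes, and the higher calls became 2 without cortex replicate 1 or hippocampus replicate 2, the lower ones 3 without hippocampus replicate 1 and 4 without cortex replicate 2.

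Splicing regulators are the class to which Srrm4 belongs. Of 33 other tested members, 3 were higher and 16 lower, with a median of -0.30, and 10 were lower without cortex replicate 1 and 6 higher without hippocampus replicate 2. Ptbp1, a repressor of neuronal exons made by progenitors, was at 27.2 and 29.6 RPKM in knockout cortex and 49.0 and 49.9 RPKM in knockout hippocampus (log2 fold change 0.69, SE 0.07, adjusted p = 0.00021, edgeR). Mbnl2, a regulator of developmental splicing, differed by 0.83. Values in the list reached 1.56, and 1 member was called at least 2-fold higher and none at least 2-fold lower. The neuronal regulators Rbfox1, at 47.6 and 51.9 RPKM against 30.0 and 36.8 RPKM (-0.68), Nova2 (-0.66) and Elavl3 (-0.63) were lower. Srrm3, the paralog of Srrm4 that also activates microexons, was at 15.4 and 17.8 RPKM against 12.1 and 14.1 RPKM (-0.45, SE 0.10, adjusted p = 0.0077, edgeR). The share of the list called in the knockout was 57.6%, against 40.0% of all genes tested. In controls 3 were higher and 12 lower, with Ptbp1 at 0.69 and Srrm3 at -0.36.

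Hosts of neuronal microexons had 6 of 53 higher and 25 lower, with a median of -0.29. The share called was 58.5%, against 40.0% of all genes tested. All genes from 10 to 100 RPKM also had more lower than higher calls, 1548 against 872. The part of expression level in the count of hosts was not tested. The values are gene totals and do not show whether a microexon is included. Robo2 and Mef2c, described above, had the largest differences. Dnm1, the dynamin of synaptic vesicle recycling, was at 58.2 and 56.7 RPKM in cortex and 23.3 and 29.4 RPKM in hippocampus (-1.23). Ap1s2, an adaptor subunit of vesicle transport, was at 9.42 and 9.10 RPKM against 16.3 and 16 RPKM (0.69), and Ptprs, a receptor phosphatase of synapses, at 126.1 and 140.3 RPKM against 193.6 and 198.2 RPKM (0.45). Mapt, which encodes tau, did not pass (-0.43, adjusted p = 0.082, edgeR), but DESeq2 called it (adjusted p = 0.028). The control comparison gave 6 higher and 20 lower with a median of -0.21.

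Rest, the repressor of neuronal genes whose own transcript Srrm4 is known to splice, was at 2.68 and 3.69 RPKM in cortex and 4.08 and 3.97 RPKM in hippocampus and did not pass (0.24, adjusted p = 0.20, edgeR), although it passed without cortex replicate 2 (0.46, adjusted p = 0.020, edgeR). Of 35 genes of the list of Rest, its partners and targets, 4 were higher and 18 lower, with a median of -0.37. The share called was 62.9%, against 40.0% of all genes tested. The 18 lower calls became 11 without cortex replicate 1, and the 4 higher ones 2 without hippocampus replicate 2. Rcor2, a Rest corepressor partner, was at 34.5 and 40.5 RPKM against 63.2 and 82.1 RPKM (0.85). Nefl, the light neurofilament, was at 43.8 and 38.2 RPKM against 8.91 and 4.5 RPKM (-2.71), with a control difference of -2.62.

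Among the most abundant genes most differences were small. At a mean of 100 RPKM or more in the knockout, the median absolute log2 fold change was 0.15. Of the 595 genes tested at that level, 11 (1.85%) were called at least 2-fold. Stmn1, a regulator of microtubule turnover, was at 2992 and 3330 RPKM in cortex and 2109 and 2261 RPKM in hippocampus (-0.64). Dbi, an acyl-CoA binding protein of glia and progenitors, was at 157.1 and 169.2 RPKM against 377.9 and 328.4 RPKM (1.01), and Fabp5, a fatty acid binding protein, differed by 0.41. The tubulins Tuba1a and Tubb5, the actin Actg1 and Tmsb10, an actin-binding peptide, were called lower, with log2 fold changes of -0.39, -0.46, -0.45 and -0.35 in that order. These calls were lost without cortex replicate 1, at -0.35, -0.38, -0.34 and -0.32 (adjusted p = 0.094, 0.10, 0.16 and 0.087, edgeR), and that of Actg1 also without hippocampus replicate 1 (-0.38, adjusted p = 0.096, edgeR). Of 47 ribosomal protein genes none was called by edgeR, 1 had an unadjusted p under 0.05 and DESeq2 called 1, with a median of 0.04. Without hippocampus replicate 2 edgeR called 9 higher, and without hippocampus replicate 1 it called 1 lower. Of 12 mitochondrial genes none was called either, 0 had an unadjusted p under 0.05 and DESeq2 called 0. Their summed level was raised in hippocampus replicate 1 alone, at 20719 RPKM for the ribosomal and 70593 RPKM for the mitochondrial genes, against 17155 and 55492 RPKM in cortex replicate 1.

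The same contrast in controls shares no library with the knockout contrast, although the fit pools its estimate of spread over all 8 libraries. It called 5464 genes (33.9%), 3066 (19.0%) higher and 2398 (14.9%) lower. Without control cortex replicate 1 it called 3231. Genes called in both genotypes numbered 4972, which is 77.2% of the knockout calls and 91.0% of the control calls, and all of them had the same sign. Of the 1470 called in the knockout alone, 1458 had the same sign in controls, and of the 492 called in controls alone, 486 had the same sign in the knockout. Across the 16111 genes the log2 fold changes correlated with a Pearson r of 0.938 and a Spearman rho of 0.911. This is a correlation across genes, which are not independent replicates. Of the knockout calls of at least 2-fold, 1665 (80.0%) were also called at 2-fold or more in controls. The fold was larger in the knockout for 60.3% of all genes and for 55.3% of the genes called in controls.

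**Figure D5:**
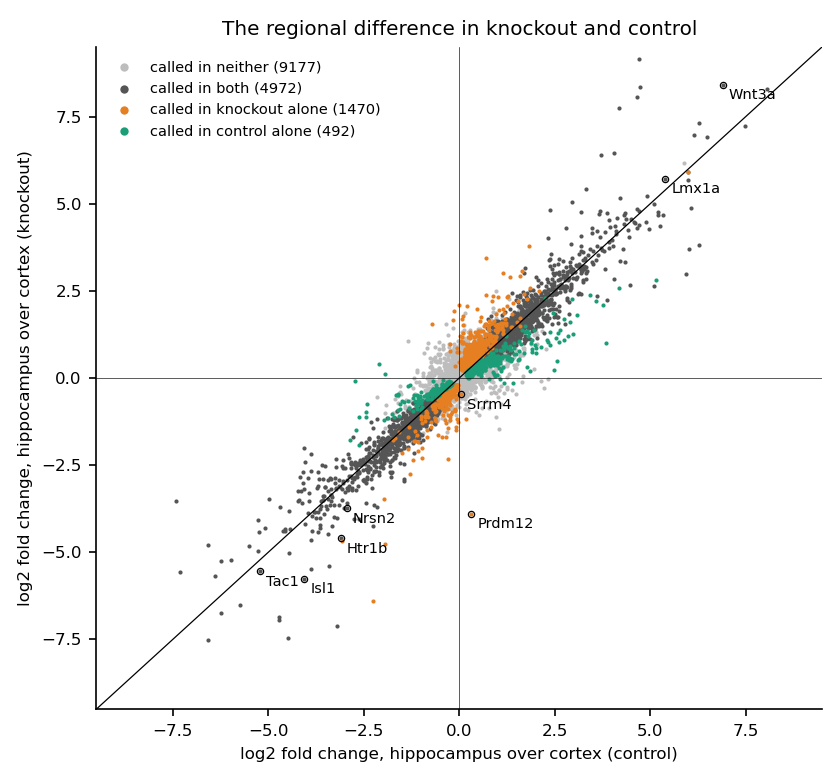
Log2 fold change of hippocampus over cortex in the knockout (vertical axis) against the same in controls (horizontal axis), 1 point a gene, coloured by the contrasts in which the gene was called. The 4972 genes called in both lie along the diagonal, and the 1470 called in the knockout alone and 492 called in controls alone cluster near the centre.

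The test of the difference between the regional contrasts, the interaction of region and genotype, called none of the 16111 genes (0.0%, edgeR). Without adjustment, 158 genes had a p under 0.05, and 1375 did without knockout hippocampus replicate 2. DESeq2 also called none, with 85 at an unadjusted p under 0.05. A call in 1 genotype alone is therefore not shown to be particular to it, nor does the absence of calls show that the contrasts were equal. The smallest interaction p-values at 1 RPKM or more belonged to genes lower in hippocampus by more in the knockout. Ngef, a guanine nucleotide exchange factor of neurons, differed by -2.91 in the knockout and -2.42 in controls (unadjusted p = 0.0028, edgeR), and Sst by -2.66 and -2.18. Nrsn2, a neuronal vesicle protein, gave -3.74 and -2.95, and Srrm4 gave -0.46 and 0.05 (unadjusted p = 0.0056, adjusted p = 1.00, edgeR).

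Of all knockout calls, 12 had the opposite sign in controls, 5 of them among the calls of at least 2-fold. The largest were Prdm12 (-3.89 against 0.32), Fam166a (1.92 against -0.14) and Smco1 (1.67 against -0.15). The first, a regulator of sensory neurons, was at 1.30 and 0.42 RPKM in knockout cortex and 0.10 and 0.01 RPKM in knockout hippocampus, and the other two stayed under 1 RPKM, with at most 46 counts in any knockout library. All were called in the knockout on such levels, none passed the interaction test, and each call was lost when single libraries were left out. Prdm12 stood at -2.78 without cortex replicate 1, -6.97 without hippocampus replicate 1 and -3.32 without hippocampus replicate 2 (adjusted p = 0.16, 0.083 and 0.10, edgeR). Smco1 stood at 0.87 without cortex replicate 1 and 1.46 without hippocampus replicate 1 (adjusted p = 0.19 and 0.12, edgeR), and at 2.43 without cortex replicate 2. Fam166a stood at 2.37 without cortex replicate 2, 1.95 without hippocampus replicate 2 and 1.91 without control cortex replicate 2 (adjusted p = 0.055, 0.076 and 0.053, edgeR).

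Some of the widest gaps belonged to gene models that may share reads with near-identical copies, so their values are uncertain. Gm10800 was at 0.13 and 0.66 RPKM in knockout cortex, on 3 and 7 counts, and at 36.5 and 70.3 RPKM in knockout hippocampus, on 762 and 696 counts, a ratio of 163 (exact 95% interval 88.6 to 341.5, counting error only). Its fitted log2 fold change of 7.33 became 6.23 without cortex replicate 1 and 8.51 without cortex replicate 2. Gm10801 had 1 count in each cortex library and 158 and 105 in hippocampus. Gm10720 had no count in cortex and 44 and 30 counts in hippocampus, at least 27.6-fold higher against a floor of 3 counts over the group. Its control values moved alike, with an interaction log2 difference of 0.23.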

How the data were processed

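Polyadenylated RNA libraries were made with Tri Reagent and Illumina TruSeq kits, per the labels' protocols. Bowtie and build mm9 stand in the submitters' processing notes, with no version or counting rule, and no source used here says whether counting used strand. The 12 labelled samples correspond to 8 deposited tables, since 2 runs of 1 replicate share a table in each group. The authors deposited a whole-number read count for each gene and an RPKM value, which they normalized to gene length and library size; 1114 cells of the RPKM column read "ne" in place of a number. The counts and RPKM values of 8425 well counted genes implied gene lengths that agreed between libraries within a ratio of 0.996281 to 1.00469. Of 22667 Ensembl IDs, 20759 were paired with a symbol by the reference table, and IDs without one held at most 0.402% of counts. Rows without an ID were left out.

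Counts were tested with edgeR 4.0.16 (R 4.3.3): TMM scaling, filterByExpr with a minimum count of 10 and a minimum total of 15, a quasi-likelihood fit with 1 mean for each of the 4 groups over all 8 libraries, and Benjamini-Hochberg adjustment at 0.05 over 16111 genes. The contrasts were hippocampus against cortex in the knockout, the same in controls, and their difference. Standard errors are the absolute log2 fold change divided by the square root of F. A floor of 3 counts corresponded to 0.0214 to 0.0515 CPM. Alternatives used DESeq2 1.42.0, limma 3.58.1 on log2(RPKM + 1) or log2(RPKM + 0.1), RLE scaling, other filters, the replicate number as a block, the knockout libraries alone, and each library left out in turn. The scripts were tested on simulated data.

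The comparison, its 47 gene lists (1065 distinct genes tested) and the tests were chosen with earlier results of these data known. Genes were named by rule. Among called genes without overlap between tissues and with a mean of at least 1 RPKM in either, it took the largest changes and the most abundant genes. It also took the smallest interaction p-values, calls of opposite sign in controls, and the extreme and most abundant uncalled members of each list. Axin2, Cdkn1a, Cux2, Dkk1, Eomes, Foxj1, Frzb, Gad1, Hoxb2, Hoxb3, Hoxb5, Mki67, Reln, Rest, Rrm1, Rspo1, Slit1, Srrm3, Syn1, Wnt5a and Zbtb20, and the genes under other observations, fall outside that rule and were chosen after their values were seen. Some list members are not reported here.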

Additional observations from a re-analysis of the deposited data

How the results depend on the processing

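The count of genes called between knockout hippocampus and cortex was 6442, and 4156 to 6364 when 1 library was left out, the lowest without knockout cortex replicate 1. It was 6330 with DESeq2, 6405 with RLE scaling, 6323 without the count filter, 5368 with at least 1 RPKM in 2 libraries, 6374 and 6468 with limma on log2(RPKM + 1) and log2(RPKM + 0.1), and 4983 from the knockout libraries alone. None of the 6442 calls had the opposite direction under any of these settings. Calls of at least 2-fold numbered 2080, but 1301 with at least 1 RPKM in 2 libraries, where fewer genes are tested, and 760 on log2(RPKM + 1), which compresses the folds of low genes, and 1773 to 2170 when 1 library was left out. The control contrast gave 3231 to 6000 calls when 1 library was left out. Srrm4 in the knockout ranged from -0.58 to -0.32 when 1 library was left out, and it missed the threshold at -0.32, without knockout cortex replicate 1, where 1 cortex library remains; the cause was not tested. The interaction test called 0 genes under every setting run.

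Libraries with the same replicate number deviated together from their group means, with a correlation across genes of 0.38 in the knockout and 0.37 in controls. With only 1 pair of numbers in each genotype and no label tying a number to an animal, litter or day, the pairing is a hint from the data, not from the design. Y-linked levels also went with the number, at 35.3 and 39.6 CPM in cortex and hippocampus of control replicate 1 and 144 and 148 CPM in control replicate 2, and at 25.4 and 49.8 CPM in knockout replicate 1 and 0.319 and 0.412 CPM in knockout replicate 2. With the replicate number as a block, 8151 genes were called in the knockout, 6439 of them calls without the block in the same direction, 7053 in controls and 0 in the interaction. Under the block Ttr (3.70, adjusted p = 0.0055, edgeR), Apc, Bcl11a, Nr2f1 and Rrm1 were called too, no gene named here lost its call, and 8 Wnt pathway genes were lower in place of 5, 4 Notch genes in place of 2, 5 splicing regulators higher in place of 3 and 2 oligodendrocyte genes in place of 1. It also called 1 ribosomal gene lower and 1 mitochondrial gene higher.

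With 2 libraries a group, a gene whose regional difference is similar to the gap between the replicates of 1 tissue cannot be told from no difference.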

Other observations

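The genes below lie outside the lists and were picked after their values were seen, so they stand for themselves and not for a group. Some members of the interferon-inducible p200 cluster, DNA sensors and their relatives, differed between knockout hippocampus and knockout cortex. Ifi203 was at 0.57 and 0.67 RPKM in cortex and 15.9 and 16.1 RPKM in hippocampus (log2 fold change of hippocampus over cortex 4.59, adjusted p = 7.9e-07 by edgeR; 4.12 in controls). Mndal was at 0.93 and 1.04 RPKM against 19.1 and 23.7 RPKM (4.34), Ifi207 differed by 3.80 and Ifi204 by 2.30. Aim2 and Ifi208, of the same cluster, did not pass (0.11 and -0.02), although Aim2 passed without cortex replicate 2 (0.79, adjusted p = 0.022, edgeR). These genes are near-identical in parts, so reads may be shared among them and the value of each is uncertain.

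Single genes of the extracellular matrix and of growth factor signals were called higher. Col12a1, a collagen that lies on fibrils, was at 1.72 and 1.56 RPKM in cortex and 15.1 and 12.4 RPKM in hippocampus (2.95), and Has2, which makes hyaluronan, at 0.59 and 0.54 RPKM against 5.55 and 4.92 RPKM (3.10). Prelp, a leucine-rich matrix protein, differed by 4.49 and Ltbp1, which binds latent transforming growth factor, by 2.58. Tgfb2, the growth factor itself, was at 4.57 and 4.14 RPKM against 19.2 and 22.7 RPKM (2.16). Fgfr1, a fibroblast growth factor receptor, was at 21.2 and 23.04 RPKM against 98.5 and 129.8 RPKM (2.26), and 2.28 in controls. Mural and meningeal markers were raised in the same libraries, at 144.7 and 125.2 summed RPKM against 91.7 and 94.7 RPKM in cortex, and their part in these differences was not tested.

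Gucy1a1, a subunit of the nitric oxide receptor, was at 77.9 and 73.7 RPKM in cortex and 12.7 and 7.49 RPKM in hippocampus (-3.01), and Gucy1b1, its partner, differed by -2.40. Pbx3, a homeobox factor, was at 34.1 and 33.9 RPKM against 2.97 and 2.83 RPKM (-3.66). Pde10a, a phosphodiesterase of striatal neurons, differed by only -0.65, and Adcy5, the adenylyl cyclase of those neurons, overlapped between the tissues at 18.0 and 17.2 RPKM against 15.1 and 19.5 RPKM and did not pass (-0.13), although it passed without hippocampus replicate 2 (-0.34, adjusted p = 0.022, edgeR). The ventral forebrain list was lower in the same libraries, and its part was not tested.

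Among metabolic and stress genes, Thrsp, a regulator of lipid synthesis, was at 2.85 and 2.70 RPKM in cortex and 30.6 and 29.3 RPKM in hippocampus (3.32), and Hspb8, a small heat shock protein, at 0.79 and 0.82 RPKM against 10.7 and 9.82 RPKM (3.56). The lens and glial chaperone Cryab differed by 2.11 and Gldc, the glycine-cleaving enzyme of astrocytes and radial glia, by 1.91.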
